A study of Mus musculus with 24 samples.

Results

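The genes described here are the CDK inhibitors of the Cip/Kip family (Cdkn1a, Cdkn1b, Cdkn1c) and of the Ink4 family (Cdkn2a, Cdkn2b, Cdkn2c, Cdkn2d), together with Trp53 and Mdm2. They were taken by symbol, as 9 of the 24537 genes in the count table, with earlier results of these data known. The paper had already shown Cdkn1a (p21) levels in EDL from this RNA-seq. The comparison asks whether the rise of Cdkn1a after OSKM induction (Pou5f1, Sox2, Klf4 and Myc, the 4F set) was particular to that gene among the CDK inhibitors. Whole extensor digitorum longus (EDL) and soleus (SOL) muscles were taken from 2-month-old Acta1-Cre+/4Fhet mice (Cre+) and Acta1-Cre-/4Fhet mice (Cre-), and poly(A) RNA was sequenced. Mice of both genotypes carried the 4F transgene and were given doxycycline (Dox) in drinking water at 1 mg/ml, and muscles were taken after 2.5 days, 5.5 days and 8.5 days, so that the groups differ in the Acta1-Cre allele, which releases rtTA in myofibers. There were 2 libraries for each muscle, genotype and day, 24 in all. Because the whole muscle was sequenced, a change in RNA per cell and a change in the share of a cell type cannot be told apart, and transcripts of myofibers and of other cells are counted together.

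CDK inhibitors hold back the cell cycle by binding cyclin-dependent kinases. The Cip/Kip proteins p21 (Cdkn1a), p27 (Cdkn1b) and p57 (Cdkn1c) bind many cyclin-CDK complexes, whereas the Ink4 proteins bind Cdk4 and Cdk6 and so keep Rb active. Trp53 encodes the transcription factor p53, of which Cdkn1a and Mdm2 are textbook targets, and Mdm2 encodes the ubiquitin ligase that in turn marks p53 for degradation. In muscle, p21 and p57 are known for cell cycle exit during myogenic differentiation, and transcription from the Cdkn2a locus is known as a barrier to reprogramming and a mark of senescence.

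The promoters of Cdkn1a, Cdkn1b and Mdm2 are shown because these members rose, fell and did not pass the test in EDL muscle, respectively. Each run spans 250 bases before and 50 bases after the transcript start, 5′ to 3′ on the strand of the gene, from RefSeq on GRCm38.p6. Capitals mark matches, on either strand, to a TATA box (TATAAA), a GC box (GGGCGG), the Myc E-box (CACGTG), the octamer (ATGCAAAT), the CCAAT box (CCAAT) and the p53 half-site.
Cdkn1a, chr17:29093519-29093818, plus strand: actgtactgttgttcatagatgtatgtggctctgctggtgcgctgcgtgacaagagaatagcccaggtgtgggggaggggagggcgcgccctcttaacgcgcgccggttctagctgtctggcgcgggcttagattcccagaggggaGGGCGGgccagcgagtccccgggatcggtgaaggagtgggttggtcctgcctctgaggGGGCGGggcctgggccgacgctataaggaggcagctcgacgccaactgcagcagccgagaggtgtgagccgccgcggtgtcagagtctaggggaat
Cdkn1b, chr6:134920151-134920450, plus strand: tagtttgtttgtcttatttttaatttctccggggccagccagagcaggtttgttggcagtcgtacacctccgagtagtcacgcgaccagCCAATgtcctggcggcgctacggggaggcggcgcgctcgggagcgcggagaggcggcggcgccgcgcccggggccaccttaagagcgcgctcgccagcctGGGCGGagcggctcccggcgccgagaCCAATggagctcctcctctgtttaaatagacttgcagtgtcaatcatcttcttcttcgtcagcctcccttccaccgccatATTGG
Mdm2, chr10:117710709-117711008, minus strand: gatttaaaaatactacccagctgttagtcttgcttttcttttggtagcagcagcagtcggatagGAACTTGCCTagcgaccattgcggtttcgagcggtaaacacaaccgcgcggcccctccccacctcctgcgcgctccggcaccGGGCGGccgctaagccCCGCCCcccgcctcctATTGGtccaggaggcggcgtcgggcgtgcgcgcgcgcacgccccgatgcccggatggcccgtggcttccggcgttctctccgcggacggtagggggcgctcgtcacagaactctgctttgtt
The Cdkn1a window held 2 GC boxes and none of the other motifs. The Cdkn1b window held 1 GC box and 3 CCAAT boxes, and the Mdm2 window held 2 GC boxes, 1 CCAAT box and 1 p53 half-site. Over 32851 promoter windows, 35.7% held a GC box, 37.4% a CCAAT box, 8.36% a p53 half-site, 13.6% the TATA box, 7.15% the Myc E-box and 1.74% the octamer. A second Cdkn1a start, chr17:29090729-29091028, had 2 matches to the p53 half-site. These matches are letters in a window and say nothing of binding.

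The induction itself was read from Pou5f1, which encodes OCT4. At 2.5 and 8.5 days Pou5f1 lay between 17.5 and 76.2 FPKM in the 4 Cre+ EDL libraries, between 5.02 and 12.2 FPKM in the 4 Cre+ SOL libraries and at or under 0.0896 FPKM in the 8 Cre- libraries. FPKM here is the count divided by exon length and library total, and CPM the count scaled by the TMM-adjusted total alone. At 5.5 days Pou5f1 was 1.02 and 27.7 FPKM in the Cre+ EDL libraries but 0.0785 and 0.387 FPKM in the Cre+ SOL libraries, so the 5.5-day libraries went against their labels in part and are described apart. At 2.5 and 8.5 days Sox2 and Myc were higher in every Cre+ than in every Cre- library. Klf4 was 24.4 to 61.9 FPKM in Cre+ and 7.02 to 17 FPKM in Cre- EDL. In SOL Klf4 overlapped, at 12.6 to 22.7 FPKM in Cre+ and 11.1 to 22.6 FPKM in Cre-, and the paper also describes it as similar there. Fiber type markers followed the muscle labels, with slow fiber genes summing to 120 to 1330 CPM in EDL and 26500 to 50300 CPM in SOL. Total counts ran from 36088781 to 54679082 per library. TMM factors, by which edgeR scales libraries, were 1.07 to 1.21 in Cre+ EDL against 0.921 to 0.98 in Cre- EDL at 2.5 and 8.5 days. Small differences in FPKM can therefore vanish or turn in the tests.

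Cdkn1a was the member that rose in EDL muscle. At 2.5 days it was 16 and 13.6 FPKM in the Cre- libraries and 89.2 and 139 FPKM in the Cre+ libraries. At 8.5 days it was 29.9 and 29.5 FPKM in Cre- and 158 and 130 FPKM in Cre+. Every Cre+ EDL library of these days lay well above every Cre- EDL library. The log2 fold change was 2.61 (SE 0.21, 6.12-fold, edgeR quasi-likelihood adjusted p = 1.04e-05, 95% interval 2.16 to 3.07) at 2.5 days and 2.09 (SE 0.21, 4.27-fold, edgeR adjusted p = 4.5e-05, 95% interval 1.65 to 2.54) at 8.5 days. A gene was called when its Benjamini-Hochberg adjusted p was under 0.05 and its log2 fold change beyond 0.5 in size. Of the 8 members that passed the low-count filter, 1 was called at 2.5 days and 2 at 8.5 days, where 24% and 14.1% of the 15372 genes tested were called. The members' median log2 fold change was -0.056 at 2.5 days and 0.076 at 8.5 days, beside -0.047 and -0.017 over all genes. Ranked from the highest log2 fold change down, Cdkn1a stood at place 355 of 15372 at 2.5 days and at place 292 at 8.5 days.

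**Figure D1:**
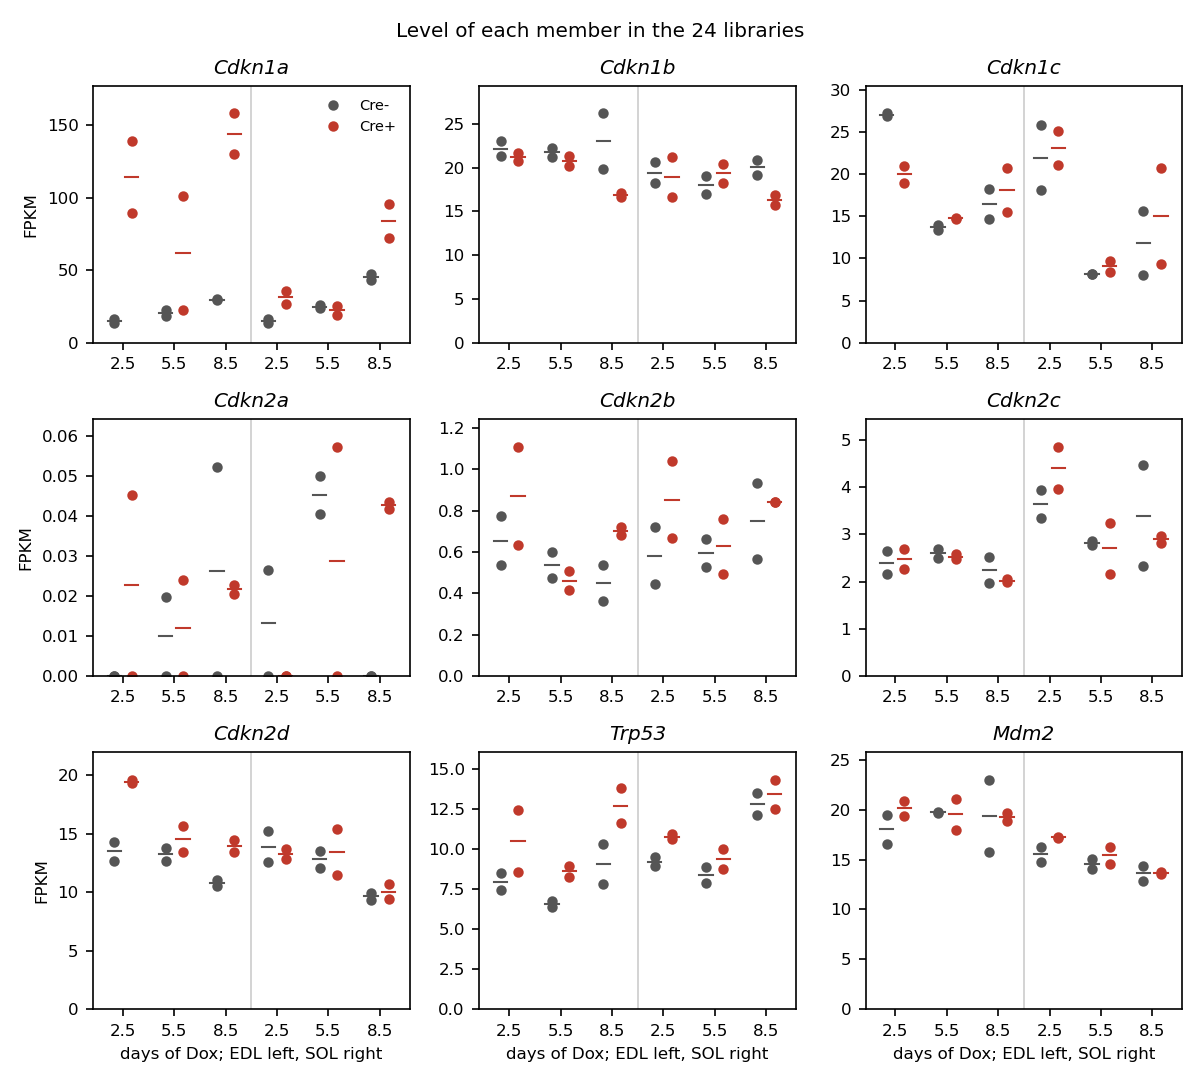
Level of each of the 9 members in the 24 libraries, in FPKM on a linear axis from 0, against days of Dox with EDL on the left and SOL on the right of each panel. Points are libraries (grey Cre-, red Cre+), short lines are the means of 2 libraries, and in the Cdkn1a panel the Cre+ EDL points of 2.5 and 8.5 days lie at 89.2 to 158 FPKM above all Cre- points.

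In SOL muscle Cdkn1a was higher in Cre+ by a smaller step that did not pass the test. At 2.5 days it was 16.4 and 13.8 FPKM in Cre- and 35.7 and 26.9 FPKM in Cre+. At 8.5 days it was 47.1 and 42.9 FPKM in Cre- and 95.6 and 72.0 FPKM in Cre+. The groups did not overlap on either day. The log2 fold change was 0.90 (SE 0.20, edgeR adjusted p = 0.0942) at 2.5 days and 0.86 (SE 0.20, edgeR adjusted p = 0.113) at 8.5 days. None of the 8 members was called in SOL, where 0.384% and 0.631% of genes were, and 1 member, Cdkn1a, had an unadjusted p under 0.05 on each day. DESeq2 on the same libraries called Cdkn1a on both days, with adjusted p of 0.00507 and 0.00821, and called no other member. Liver marker genes moved with genotype at 8.5 days. The 5 genes summed to 7.41 to 11.1 CPM in Cre- and 0.843 to 1.08 CPM in Cre+ EDL, where 3 of 5 were called lower, and to 23.7 to 128 CPM in Cre- and 1.09 to 1.47 CPM in Cre+ SOL, where 5 of 5 were. Their part in the 8.5-day values of Cdkn1a was not tested.

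The Cdkn1a change was larger in EDL than in SOL at 2.5 days. The difference of the log2 fold changes was 1.72 (SE 0.29, edgeR adjusted p = 0.00807) at 2.5 days, in a contrast that called 4.25% of genes, and 1.24 (SE 0.28, edgeR adjusted p = 0.0833) at 8.5 days, where 0.592% of genes were called. These contrasts took EDL and SOL libraries as independent. At 2.5 days those of the same number deviated together over genes (r = 0.226 in Cre+ and 0.44 in Cre-), and the labels do not say whether they share a mouse. The 2.5-day call was lost without the second Cre+ SOL library, where the difference was 1.53 with adjusted p = 0.0517, and without the second Cre- EDL library, where it was 1.63 with adjusted p = 0.05. It was also lost in the fit of all 24 libraries (1.74, edgeR adjusted p = 0.0865), whereas DESeq2 called the 8.5-day difference (1.23, adjusted p = 0.00392). Pou5f1 was also higher in EDL than in SOL, and Klf4 was raised by genotype in EDL but overlapped in SOL (above). The part of induction strength, or of which factors were induced, in the difference was not tested. For the other 7 members tested, no difference between muscles was called. Between 2.5 and 8.5 days the change of Cdkn1a differed by -0.52 (SE 0.28, edgeR adjusted p = 0.597) in EDL and -0.040 (SE 0.28, edgeR adjusted p = 1) in SOL, and 0% of genes were called in either contrast. At an unadjusted p under 0.05 the 2 day contrasts held 1469 and 403 genes, none of them a member.

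At 5.5 days Cdkn1a was high in 1 of the 2 Cre+ EDL libraries and in neither Cre+ SOL library. In EDL it was 22.5 and 18.6 FPKM in Cre- and 22.3 and 101 FPKM in Cre+, the latter in the library with 27.7 FPKM of Pou5f1. In SOL it was 24.1 and 25.7 FPKM in Cre- and 19.2 and 25.3 FPKM in Cre+. The log2 fold change in EDL was 1.44 (SE 0.42, edgeR adjusted p = 0.226), which became 2.16 with adjusted p = 0.00015 without the first Cre+ library and -0.035 with adjusted p = 0.989 without the second. In SOL it was -0.22 (SE 0.42, edgeR adjusted p = 1). edgeR called no member in either muscle (1 in EDL and 0 in SOL had an unadjusted p under 0.05), where 0.304% of genes in EDL and 0% in SOL were called. The SOL contrast held 597 genes at an unadjusted p under 0.05.

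**Figure D2:**
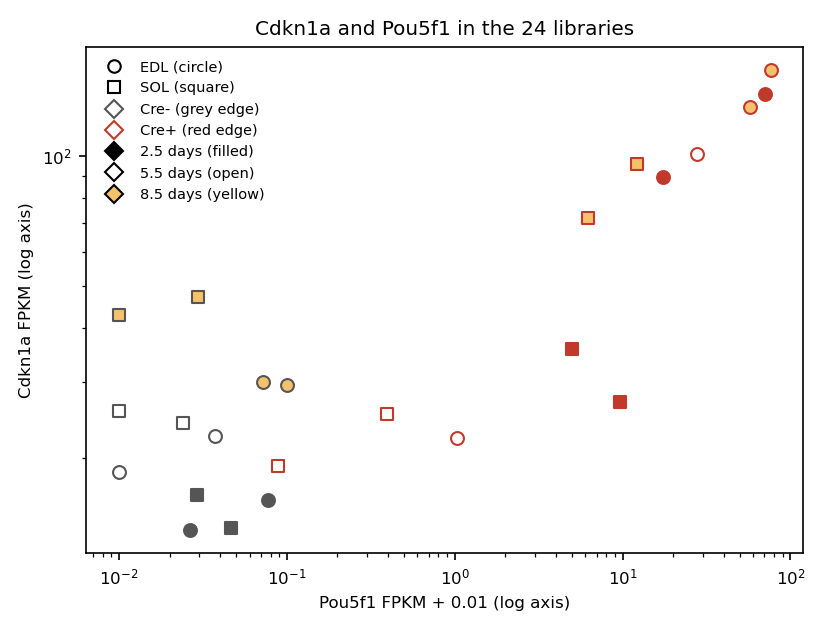
Cdkn1a FPKM against Pou5f1 FPKM plus 0.01 in the 24 libraries, both on log axes, with EDL as circles, SOL as squares, Cre- edged grey and Cre+ edged red. Fill gives the day (solid 2.5, open 5.5, yellow 8.5), and the Cre+ EDL library of 5.5 days with 27.7 FPKM of Pou5f1 lies beside the other induced EDL libraries, whereas its partner with 1.02 FPKM of Pou5f1 lies to the right of all Cre- points but, at 22.3 FPKM of Cdkn1a, at the height of Cre- points.

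The other Cip/Kip members did not follow Cdkn1a. Cdkn1b (p27) was 19.9 and 26.2 FPKM in Cre- EDL and 16.7 and 17.1 FPKM in Cre+ EDL at 8.5 days. It fell by 0.63 on the log2 scale (SE 0.16, edgeR adjusted p = 0.0162). That call rested on single libraries, since without the first Cre+ library the log2 fold change was -0.56 (adjusted p = 0.145) and without the second Cre- library, the highest, it was -0.40 (adjusted p = 0.105). At 2.5 days Cdkn1b was 21.3 and 23.0 FPKM in Cre- and 21.7 and 20.8 FPKM in Cre+ EDL, with a log2 fold change of -0.39 (SE 0.16, edgeR adjusted p = 0.0807). In SOL at 8.5 days it was 19.2 and 20.9 FPKM in Cre- and 15.7 and 16.9 FPKM in Cre+, without overlap, and was not called. In SOL at 2.5 and 5.5 days its groups overlapped. Cdkn1c (p57) was 27.2 and 26.9 FPKM in Cre- and 21.0 and 19.0 FPKM in Cre+ EDL at 2.5 days. Its log2 fold change of -0.76 (SE 0.34, edgeR adjusted p = 0.118) did not pass in the fit of 16 libraries, but did with edgeR on these 4 libraries alone (-0.74, adjusted p = 0.0242). At 8.5 days Cdkn1c was 14.7 and 18.2 FPKM in Cre- and 20.7 and 15.5 FPKM in Cre+ EDL, and the groups overlapped. In Cre- EDL Cdkn1c was 14.0 and 13.4 FPKM at 5.5 days, under both Cre- libraries of 2.5 days, a contrast that was not tested.

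Among the Ink4 members, Cdkn2a was at background. Its count was between 0 and 2 in every library, under the limit of 3 counts that a count of 0 allows, so it was left out of the tests, and no difference was detectable at this depth. The Cdkn2a gene model counted here spans chr4:89274473-89294619, and the transcripts of its 2 proteins, p16 and p19ARF, were counted as a single gene. Its neighbor Cdkn2b (p15) had 21 to 74 counts per library and 0.365 to 1.11 FPKM. At 2.5 days Cdkn2b was 0.538 and 0.773 FPKM in Cre- and 1.11 and 0.634 FPKM in Cre+ EDL. The log2 fold change was 0.093 (SE 0.39, edgeR adjusted p = 0.884) at 2.5 days and 0.46 (SE 0.41, edgeR adjusted p = 0.502) at 8.5 days, with 95% intervals that reach 0.94 and 1.34. The 2.5-day interval reached down to -0.75. A change of Cdkn2b within the intervals is not excluded with 2 libraries a group at these counts. Its reads cannot be told from those of the overlapping antisense gene Gm12610 if strand was not used in counting.

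Cdkn2c (p18) was 1.96 to 2.70 FPKM in the 6 Cre- EDL libraries, and 1.99 to 2.69 FPKM in the 6 Cre+ EDL libraries. Its log2 fold change was -0.29 (SE 0.28, edgeR adjusted p = 0.476) at 2.5 days and -0.32 (SE 0.28, edgeR adjusted p = 0.494) at 8.5 days. Cdkn2d (p19, the Ink4d inhibitor) was 12.7 and 14.3 FPKM in Cre- and 19.3 and 19.6 FPKM in Cre+ EDL at 2.5 days, and 11.0 and 10.5 FPKM in Cre- and 13.4 and 14.5 FPKM in Cre+ EDL at 8.5 days. The groups did not overlap on either day. After TMM scaling the log2 fold change of Cdkn2d was only 0.19 (SE 0.14, edgeR adjusted p = 0.314) at 2.5 days and 0.20 (SE 0.14, edgeR adjusted p = 0.355) at 8.5 days. With scaling by library size alone it was 0.53 (adjusted p = 0.0092) at 2.5 days and was called. Under that scaling the median of all genes moved to 0.28.

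Trp53 and Mdm2, upstream and downstream partners of p21 in textbook accounts, did not pass the test on any day in either muscle. Trp53 was 7.43 and 8.48 FPKM in Cre- and 8.54 and 12.4 FPKM in Cre+ EDL at 2.5 days, and 7.83 and 10.3 FPKM in Cre- and 13.8 and 11.6 FPKM in Cre+ EDL at 8.5 days. The FPKM groups were apart on both days, but after TMM scaling they overlapped, and the log2 fold change was 0.059 (SE 0.17, edgeR adjusted p = 0.827) and 0.30 (SE 0.17, edgeR adjusted p = 0.266). In EDL at 5.5 days Trp53 was 6.76 and 6.36 FPKM in Cre- and 8.94 and 8.24 FPKM in Cre+. In SOL at 2.5 days it was 8.92 and 9.47 FPKM in Cre- and 10.9 and 10.6 FPKM in Cre+. Both of these stayed apart after TMM scaling, whereas in SOL at 5.5 and 8.5 days the groups overlapped on both scales. Mdm2 was 19.5 and 16.6 FPKM in Cre- and 19.4 and 20.9 FPKM in Cre+ EDL at 2.5 days, with a log2 fold change of -0.17 (SE 0.14, edgeR adjusted p = 0.39, 95% interval -0.47 to 0.13). At 8.5 days it was 23.0 and 15.8 FPKM in Cre- and 19.7 and 18.9 FPKM in Cre+ EDL, with a log2 fold change of -0.18 (SE 0.14, edgeR adjusted p = 0.422, 95% interval -0.49 to 0.12). The intervals of Mdm2 lie below those of Cdkn1a on both days. These are RNA levels, and p53 is known to be controlled largely at the protein level. By western blot, the paper reports raised p53 and p21 protein in Cre+ tibialis anterior muscle after Dox. Protein levels cannot be read from these libraries, so p53 activity was not tested here.

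**Figure D3:**
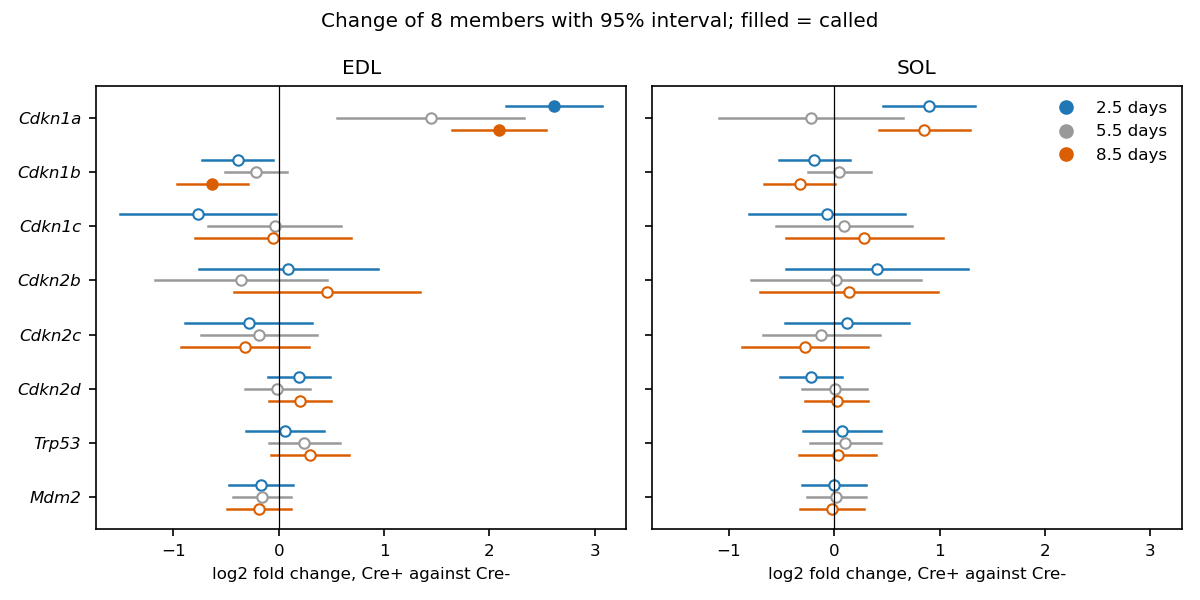
Log2 fold change of 8 members, Cre+ against Cre-, with 95% intervals as bars, in EDL (left) and SOL (right) at 2.5 days (blue), 5.5 days (grey) and 8.5 days (orange). Filled points were called; in EDL these are Cdkn1a at 2.61 and 2.09 and Cdkn1b at -0.63, and in SOL there are none.

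The test of particularity compared Cdkn1a with each other member inside the same library, which removes library scaling. In EDL the log2 ratio of Cdkn1a to Cdkn1b counts was -0.44 ± 0.60 (SD, n = 4) in Cre- and 2.41 ± 0.51 (SD, n = 4) in Cre+, over 2.5 and 8.5 days. The ratio of Cdkn1a to Trp53 was 1.35 ± 0.54 (SD, n = 4) in Cre- and 3.51 ± 0.06 (SD, n = 4) in Cre+, and that to Mdm2 was -0.52 ± 0.58 (SD, n = 4) and 1.99 ± 0.34 (SD, n = 4). The shift of the ratio in EDL was 2.84 against Cdkn1b, 2.75 against Cdkn1c, 2.64 against Cdkn2c, 2.51 against Mdm2, 2.16 against Trp53, 2.14 against Cdkn2d and 2.08 against Cdkn2b. Each of these shifts gave p = 0.0286 in a two-sided exact permutation test, which is the smallest that 4 against 4 libraries can give, and adjusted p = 0.0571 over the 14 pairs of both muscles, so that no pair passed 0.05 after adjustment. A larger shift in EDL could not have lowered these values. All pairs share the Cdkn1a counts, so they are not independent results. The Cdkn2b pair was separated by the least, with 6.76 as the highest Cre- and 6.77 as the lowest Cre+ ratio. With the 5.5-day libraries added and labels permuted within day, 6 of the 7 pairs in EDL had adjusted p = 0.0432 and the pair with Trp53 had 0.0556 by the exact permutation test. That test has 216 arrangements and a smallest possible p of 0.00926. It includes the Cre+ EDL library with 1.02 FPKM of Pou5f1, whereas the study removed samples without OSKM overexpression as outliers. In SOL the shifts were 0.59 to 1.14, with exact permutation p from 0.143 to 0.486 and adjusted p from 0.222 to 0.486. Permuting exactly within day over 2.5 and 8.5 days, each pair in EDL gave a permutation p of 0.0556 (adjusted p = 0.0648). In SOL, 5 of the 7 pairs gave the same values. This p is the smallest possible there, so no pair passed 0.05 in either muscle.

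**Figure D4:**
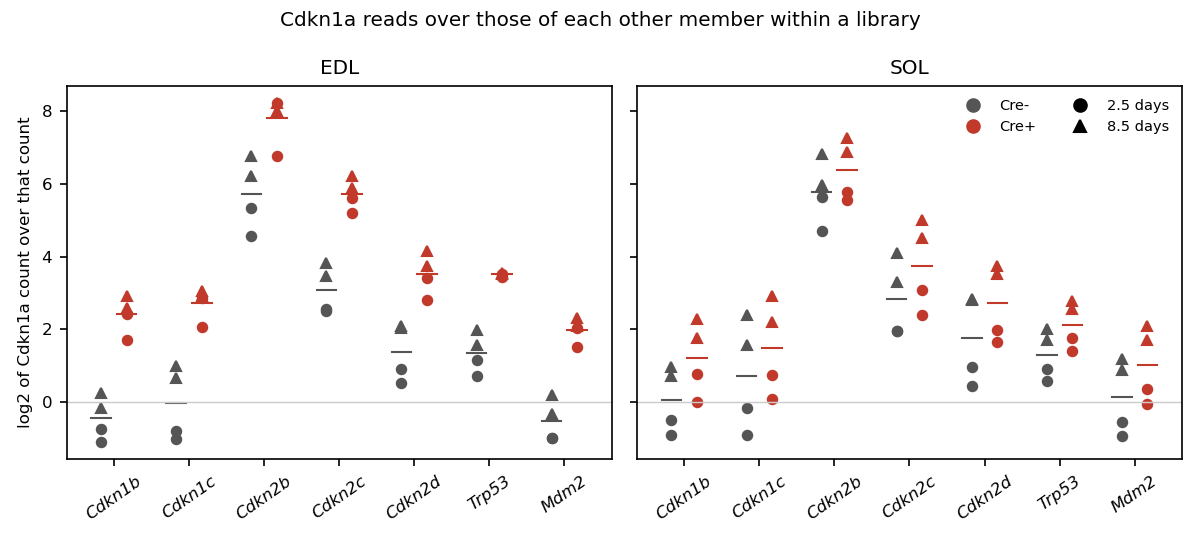
Log2 ratio of the Cdkn1a count to the count of each other member within a library (pseudocount 0.5), EDL left and SOL right, circles for 2.5 and triangles for 8.5 days, grey for Cre- and red for Cre+, lines for means of 4 libraries. In EDL the red points lie above the grey points for each member, by the least for Cdkn2b (6.77 against 6.76), and in SOL the genotypes overlap across days.

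In control muscle, without OSKM, the members differed widely in level. In the 6 Cre- EDL libraries the medians were 21.8 FPKM for Cdkn1b, 20.5 for Cdkn1a, 19.6 for Mdm2, 16.5 for Cdkn1c, 12.7 for Cdkn2d, 7.63 for Trp53, 2.51 for Cdkn2c and 0.538 for Cdkn2b, with Cdkn2a listed at 0. The ranges of the first 4 overlapped, 19.9 to 26.2 FPKM for Cdkn1b, 13.6 to 29.9 for Cdkn1a, 15.8 to 23.0 for Mdm2 and 13.4 to 27.2 for Cdkn1c, so their order is not set beyond the spread. Cdkn2d at 10.5 to 14.3 FPKM still overlapped Cdkn1a and Cdkn1c. Trp53 at 6.36 to 10.3, Cdkn2c at 1.96 to 2.70 and Cdkn2b at 0.365 to 0.773 followed without overlap between neighbors. Between the muscles of Cre- mice edgeR called no member, where 21.9% of genes were called, and 3 members had an unadjusted p under 0.05. Mdm2 was 15.8 to 23.0 FPKM in EDL and 12.9 to 16.3 FPKM in SOL, a log2 difference of 0.46 (SE 0.10, edgeR adjusted p = 0.00366) that stayed under the minimum fold. Cdkn2c was lower in EDL by 0.52 on the log2 scale (SE 0.20, edgeR adjusted p = 0.0608), and DESeq2 gave it an adjusted p of 0.0411.

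Cdkn1a also varied with the day in mice without induction, a contrast added after its values were seen. In Cre- SOL it was 16.4 and 13.8 FPKM at 2.5 days, 24.1 and 25.7 at 5.5 days and 47.1 and 42.9 at 8.5 days, and both Cre- libraries of 8.5 days lay above both Cre+ SOL libraries of 2.5 days. The log2 fold change between 8.5 and 2.5 days was 1.54 (SE 0.20, edgeR adjusted p = 0.00291) in Cre- SOL, where 3.63% of genes were called. Without the second Cre- SOL library of 2.5 days it was 1.39 with adjusted p = 0.0575, and in the fit of all 24 libraries 1.53 with adjusted p = 0.0523. In Cre- EDL it was 0.95 (SE 0.20, edgeR adjusted p = 0.0547), where 0.748% of genes were called, and DESeq2 gave an adjusted p of 0.000992. Cdkn2d went the other way in Cre- SOL, from 12.6 and 15.2 FPKM to 9.96 and 9.31 FPKM, a log2 fold change of -0.56 (SE 0.14, edgeR adjusted p = 0.0434), and leaving out any 1 of the 4 libraries ended its call. Length of Dox, handling and collection day cannot be told apart here. Markers of other tissue moved with this contrast: the 5 liver genes summed to 0.772 to 0.778 CPM in Cre- SOL at 2.5 days and 23.7 to 128 CPM at 8.5 days, and to 1.11 to 1.57 and 7.41 to 11.1 CPM in Cre- EDL. Of the 6 fibroblast genes 2 were called higher in Cre- SOL. Their part in the Cdkn1a difference was not tested.

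The genes around the inhibitors are given as lists in EDL, where 24% of all genes were called at 2.5 days and 14.1% at 8.5 days. Of 15 CDKs and cyclins tested, 2 rose and none fell at 2.5 days (24% of all genes called), and 1 rose and 1 fell at 8.5 days (14.1%). Ccne1, which encodes the Cdk2 partner cyclin E1, was 0.268 and 0.530 FPKM in Cre- and 1.98 and 2.14 FPKM in Cre+ (log2 fold change 2.02, SE 0.45, edgeR adjusted p = 0.00537). Ccnd3, which encodes cyclin D3, was 13.9 and 18.2 FPKM in Cre- and 34.9 and 37.6 FPKM in Cre+ (log2 fold change 0.84, edgeR adjusted p = 0.00947), and it rose by 0.96 on the log2 scale at 8.5 days, when Mnat1, a subunit of the CDK-activating kinase, fell by 0.59. Ccne1 and Ccnd3 were higher in both Cre+ libraries of 2.5 days than in both Cre- libraries. Of 13 Rb and E2F genes 3 rose and 1 fell on each day, beside 24% and 14.1% of all genes called. Rb1, the retinoblastoma gene, was 4.41 and 3.63 FPKM in Cre- and 10.6 and 13.6 FPKM in Cre+ (log2 fold change 1.25), E2f8, an E2F repressor, rose by 1.23 and Rbl2, the p130 gene, fell by 0.67 on the log2 scale at 2.5 days. Of 14 proliferation genes none was called by edgeR in EDL or SOL on any day, and 1 had an unadjusted p under 0.05 in EDL at 2.5 days and again at 8.5 days.

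Of 28 textbook p53 targets other than Cdkn1a and Mdm2, 7 rose and none fell in EDL at 2.5 days, where 24% of all genes were called. At 8.5 days 1 rose and 2 fell, where 14.1% were called. Their median log2 fold change was 0.081 at 2.5 days and 0.16 at 8.5 days. Eda2r, a TNF receptor family member, was 1.78 and 1.90 FPKM in Cre- and 7.68 and 6.26 FPKM in Cre+ at 2.5 days (log2 fold change 1.60, SE 0.40, edgeR adjusted p = 0.00981), and Zmat3, a zinc finger RNA-binding gene, rose by 1.01 on the log2 scale. Bbc3, which encodes the apoptotic protein PUMA, rose on both days, by 0.86 and 0.92. Ccng1 and Trp53inp1 fell at 8.5 days, by 1.01 and 1.18 on the log2 scale.

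Of 16 p53 family members and regulators, 4 rose and 3 fell at 2.5 days (24% of all genes called), and 2 rose and 3 fell at 8.5 days (14.1%). Trp73, the p73 gene, rose from 0.0135 and 0.00872 FPKM in Cre- to 0.187 and 0.17 FPKM in Cre+ at 2.5 days (log2 fold change 3.63, SE 0.71, edgeR adjusted p = 0.00226), all very low levels. Chek1, which encodes a DNA damage checkpoint kinase, was 0.100 and 0.0907 FPKM in Cre- and 0.185 and 0.414 FPKM in Cre+ (log2 fold change 1.30). Rchy1, a p53 ubiquitin ligase gene, fell by 0.67 and Ep300, a p53 coactivator gene, by 0.59 on the log2 scale. Of 16 other regulators of Cdkn1a, 1 rose and 2 fell on each day, beside 24% and 14.1% of all genes called. Zbtb17, which encodes the Myc partner Miz1, was 11.9 and 10.4 FPKM in Cre- and 18.9 and 20.7 FPKM in Cre+ at 2.5 days (log2 fold change 0.50), while Smad3, a TGF-beta effector gene, fell by 0.93 and Foxo4, a forkhead factor gene, by 0.53.

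Of 10 genes for turnover of the inhibitors, 2 rose on each day and none fell, beside 24% and 14.1% of all genes called. Ddb1, an adaptor of the CRL4 ligase, rose by 0.73 and Skp1a, a subunit of the SCF ligase, by 0.63 on the log2 scale at 2.5 days. Of 13 regulators of the Ink4 locus, 1 rose and 4 fell at 2.5 days (24% of all genes called), and none rose and 3 fell at 8.5 days (14.1%). Ezh2, the Polycomb methyltransferase gene, rose by 0.68, whereas Kdm2b, a histone demethylase gene, fell by 0.95 and Tbx2, a T-box repressor gene, by 0.98 on the log2 scale at 2.5 days. In SOL none of the 125 genes tested in these 8 lists was called by edgeR on any day, and 10, 4 and 4 of them had an unadjusted p under 0.05 at 2.5, 5.5 and 8.5 days. Of all genes tested in SOL, 0.384%, 0% and 0.631% were called on these days. Markers of other cells moved too. In EDL 4 of 6 endothelial and 3 of 5 fast fiber markers fell at 2.5 days, and 2 of 5 fast fiber markers fell at 8.5 days. Liver markers were lower in Cre+ than in Cre- at 8.5 days, 3 of 5 in EDL and 5 of 5 in SOL. There the Cre- libraries were the high ones. The liver sums in Cre+ were 0.43 to 0.73 CPM at 2.5 days and 0.843 to 1.08 CPM at 8.5 days in EDL. In Cre+ SOL they were 0.664 to 0.896 and 1.09 to 1.47 CPM. Of 4 pericyte and smooth muscle markers 1 rose on each day in EDL and at 2.5 and 8.5 days in SOL. Their part in the changes of the members and lists was not tested. None of the satellite cell (5), macrophage (8) or fibroblast (6) markers was called in EDL.

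**Figure D5:**
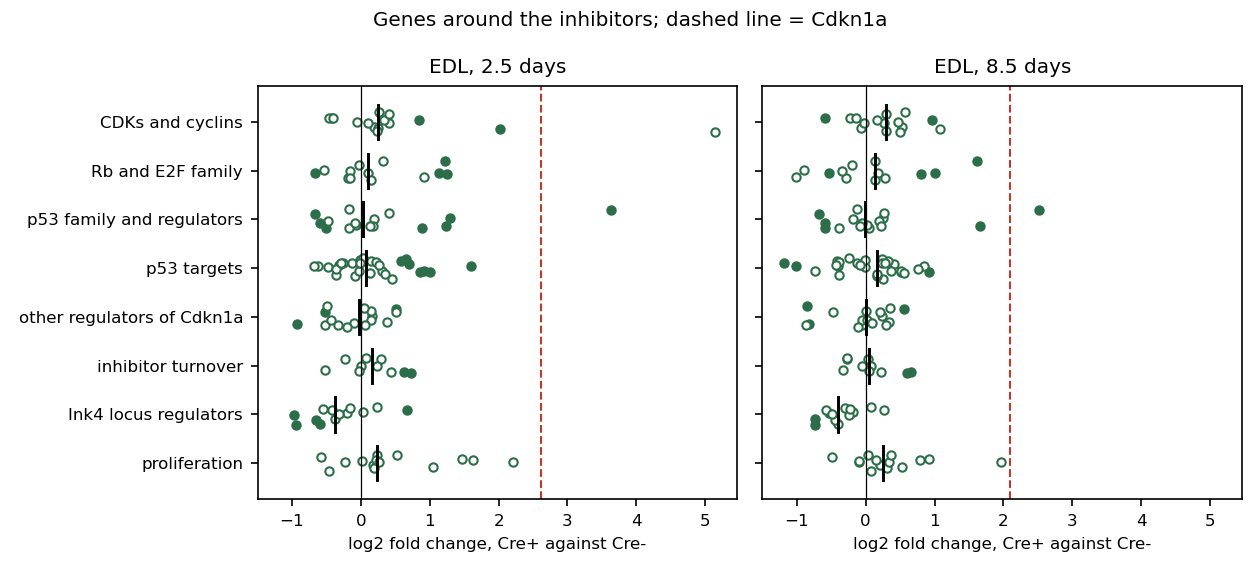
Log2 fold change, Cre+ against Cre-, of each tested gene of 8 lists in EDL at 2.5 days (left) and 8.5 days (right), with called genes filled and list medians as black bars. The dashed line is Cdkn1a at 2.61 and 2.09; at 2.5 days Trp73 at 3.63 is the called list gene to its right, and the open point farthest right, Ccnb1, was not called.

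The genes whose levels ran most like Cdkn1a over the 24 libraries, by Pearson r of log2(CPM + 1) among 11329 other genes, were Tcf20 (r = 0.902), Zbtb7b (0.898), Klhl30 (0.895), Birc3 (0.893) and Fam102a (0.891). Libraries of the same genotype, muscle and day share much of this pattern, so r is a description. Fam102a was 1.35 to 2.89 FPKM in the 12 Cre- libraries and 8.91 to 12.6 FPKM in the 4 Cre+ EDL libraries of 2.5 and 8.5 days. Its log2 fold change in EDL was 2.11 and 2.29 on these days. The 5 genes were picked by r over these same libraries, so their fold changes are a description too. Birc3, which encodes an inhibitor of apoptosis, changed by 1.02 and 1.13, and Klhl30 by 1.05 and 0.84. The genes highest in r changed less, Tcf20 by 0.63 and 0.47 and Zbtb7b by 0.78 and 0.48. Neither was called at 8.5 days. Over the 16 libraries of 2.5 and 8.5 days, 1 of these 5 genes stayed among the 5 most alike. Among the members, r with Cdkn1a was 0.459 for Trp53, -0.134 for Mdm2 and -0.568 for Cdkn1b. For the OSKM genes r was 0.867 (Sox2), 0.864 (Pou5f1), 0.864 (Myc) and 0.821 (Klf4).

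Wnt4, the secreted factor that the study followed, went opposite to Cdkn1a in EDL. It was 8.50 and 6.20 FPKM in Cre- and 1.5 and 1.95 FPKM in Cre+ EDL at 2.5 days, a log2 fold change of -2.42 (SE 0.28, edgeR adjusted p = 8.72e-05), and -2.63 (SE 0.28, edgeR adjusted p = 6.81e-05) at 8.5 days. In SOL at 2.5 days it was 1.15 and 0.951 FPKM in Cre- and 0.317 and 0.441 FPKM in Cre+ (log2 fold change -1.63, edgeR adjusted p = 0.0452). It was not called in SOL at 8.5 days, with 3.32 and 1.97 FPKM in Cre- and 1.38 and 1.68 FPKM in Cre+ (log2 fold change -0.83, SE 0.27, edgeR adjusted p = 0.403), nor at 5.5 days in EDL (-1.03, SE 0.30, edgeR adjusted p = 0.226) or SOL (0.079, SE 0.32, edgeR adjusted p = 1). In Cre- SOL it rose between 2.5 and 8.5 days by 1.30 on the log2 scale (SE 0.28, edgeR adjusted p = 0.0255). Its level in Cre- mice was higher in EDL than in SOL by 2.60 on the log2 scale (edgeR adjusted p = 1.02e-06). Across all libraries r between Wnt4 and Cdkn1a was -0.155. That value pools both muscles and all days, so it mixes the muscle and day differences above with genotype. It does not describe the relation within EDL, for which r is not given.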

How the data were processed

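Poly(A) RNA was sequenced from EDL and SOL of Cre+ and Cre- mice, 24 libraries in 12 groups of 2. Per the labels and the study's methods, the authors aligned reads with STAR 2.5.3a to mm10 and counted uniquely aligned reads on RefSeq exons with HOMER. The strand setting of counting is not given in the sources used here. The deposited values are raw counts, with replicates apart.

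Counts were tested in R 4.3.3 with edgeR 4.0.16 (quasi-likelihood, TMM, minimum count 10). The 2.5- and 8.5-day contrasts came from a fit of 16 libraries with 15372 genes, and the 5.5-day contrasts from a fit of all 24 with 15478 genes. Adjusted p-values were Benjamini-Hochberg over all genes tested. FPKM was computed from deposited counts, exon length and total count. A count of 0 allows up to 3 counts, and this floor covers counting error only. The ratio test took members with a mean of at least 10 counts, pseudocount 0.5, and all 70 arrangements of 4 against 4 libraries. Python 3.11.15 was used for it. Alternatives were DESeq2 1.42.0, other scalings, filters and sample sets, a block on replicate numbers, and fits with each library dropped in turn. Contrasts between muscles were also fitted with a block on the number shared by EDL and SOL libraries. The edgeR fit was also run on simulated counts with the same spread for every gene and changes in 1 group only. That setting is simpler than these data and does not bear on the calls given here.

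The members and gene lists were chosen with earlier results of these data known. Named genes were the members, OSKM, Wnt4, the 5 genes most like Cdkn1a and, per list, up to 2 called genes with the largest rise and fall in EDL at 2.5 days; Bbc3, Ccng1, Trp53inp1, Mnat1 and Ccnb1 were chosen with their values known. The study describes libraries of a group as independent biological samples, and p-values measure the spread between them. Libraries of the same number in EDL and SOL deviated together (r from 0.173 to 0.445 over genes in 6 pairs of groups), and Cre+ and Cre- libraries of the same number did not (-0.169 to 0.0578).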

Additional observations from a re-analysis of the deposited data

Results flagged for a closer look

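The change of Cdkn1a in Cre+ against Cre- muscle differed between EDL and SOL at 2.5 days, by 1.72 on the log2 scale (EDL minus SOL, edgeR quasi-likelihood adjusted p = 0.00807), with both Cre+ libraries higher than both Cre- libraries in each muscle. Leaving out 1 of the 8 libraries at a time gave 1.42 to 1.97, with adjusted p from 0.00115 to 0.0517.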

How the results depend on the processing

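The rise of Cdkn1a in EDL at 2.5 and 8.5 days was called under every alternative run, and leaving out 1 library gave 2.31 to 2.86 and 2.00 to 2.18 on the log2 scale. In SOL its change of 0.90 and 0.86 was not called by edgeR, but was at 2.5 and 8.5 days with no low-count filter (0.90 and 0.86), with DESeq2 (0.87 and 0.86) and with DESeq2 on the 4 libraries (0.88 and 0.86), so that 1 member was called in each. The difference between muscles was 1.74 and not called with all 24 libraries at 2.5 days (0 members), 1.23 and called with DESeq2 at 8.5 days (1 member), and 1.42 to 1.97 with each library left out at 2.5 days (0 to 1 member called). At 5.5 days in EDL leaving out 1 library gave -0.035 to 2.16 (0 to 1 member called).

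At 2.5 days in EDL 2 members rather than 1 were called with library size alone (Cdkn2d), with edgeR or DESeq2 on the 4 libraries and with the replicate block (Cdkn1c, -0.77 with the block). Cre+ and Cre- libraries of the same number did not deviate together, so the block is not a pairing of mice, and it changed no other count of members called. At 8.5 days 1 member rather than 2 was called with library size alone, with edgeR and with DESeq2 on the 4 libraries, and 1 to 2 with a library left out, the lost member being Cdkn1b. In Cre- mice 1 member was called between muscles (Cdkn2c) with library size alone, all 24 libraries or DESeq2. Between days 1 was called with DESeq2 in EDL, and 1 with library size alone or all 24 libraries and 0 to 1 with a library left out in SOL.

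Signs of changes that were not called turned under library size alone for Mdm2 (0.16) and Cdkn2c (0.045) at 2.5 days and Cdkn1c (0.14) at 8.5 days in EDL; that scaling moved the median of all genes by more than 0.1 there. With libraries left out, they ranged at 2.5 days from -0.43 to 0.48 for Cdkn2b and from -0.18 to 0.27 for Trp53, and at 8.5 days from -0.42 to 0.10 for Mdm2 and from -0.22 to 0.13 for Cdkn1c. Of 692 further values of members in the contrasts given as ranges or counts, 76 changed sign and none was called. Of the ratio pairs in EDL, 6 passed with all 3 days, and 1 of the 5 genes most like Cdkn1a stayed with 16 libraries. The causes of these changes were not tested. With 2 libraries a group, and a lone library assumed to vary like the other groups when 1 is left out, small changes of members are not excluded, as the 95% intervals show.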
